A study of Mus musculus with 20 samples.

Results

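The 10 genes described here encode the FGF receptors Fgfr1, Fgfr2, Fgfr3, Fgfr4 and Fgfrl1, the co-receptor beta-klotho (Klb), the ligands Fgf1, Fgf15 and Fgf21, and the receptor adaptor Frs2. They were chosen by gene symbol, as the mouse receptor system on which FGF19 acts, and were 10 of the 50559 genes in the count tables. Their RNA was measured by bulk RNA-seq in 20 libraries. There were 5 of each group, namely livers and tumors raised with Aldafermin + MYC, with FGF19 + MYC or with sgTrp53 + MYC. All samples came from wild type C57BL/6J mice, in this study females injected as young adults, and each library came from a different mouse. The study collected livers at signs of tumors or at a preset endpoint, so age at collection may differ between groups. Mice were fasted for some hours before collection. Tumors were raised by hydrodynamic gene transfer, in which plasmids injected into the tail vein reach a fraction of hepatocytes. The Sleeping Beauty transposase inserts those built as its transposons into the genome, whereas the Trp53 guide was on a lentiviral CRISPR plasmid. MYC, driven by the EF1a promoter, was given to all 3 tumor groups. It was combined with human FGF19, with Aldafermin, which is an engineered FGF19 with a deletion and substitutions near its N-terminus, or with a CRISPR guide against Trp53 (sgTrp53). The livers are labelled non treated, whereas the study's text describes control mice that received an RFP plasmid. For the sgTrp53 + MYC tumors the condition was taken from the sample titles, since their treatment label reads none. The human transgenes are not in the mouse annotation, so their level was not analysed here.

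FGF19 is a hormone made by the ileum in response to bile acids, and Fgf15 is its mouse ortholog. In hepatocytes it binds FGFR4 together with beta-klotho, a membrane protein that holds the hormone on the receptor. The activated receptor phosphorylates the adaptor FRS2, which starts the RAS/MAPK cascade, and one outcome is repression of Cyp7a1, the rate-limiting enzyme of bile acid synthesis. FGF21 is a related hormone secreted by the liver in fasting and stress, which uses beta-klotho mainly with FGFR1, whereas FGF1 binds FGF receptors without beta-klotho.

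Libraries held 18004977 to 66354724 reads on genes, and the 14333 genes that reached 1 CPM in 5 or more libraries were tested. CPM are the reads of a gene scaled to a common library size, here on the TMM scale, which assumes that most genes do not change. The second count table held the 5 sgTrp53 + MYC libraries and no others, so that table and group cannot be told apart in any comparison with them. These libraries were also deeper, at 54042455 to 66354724 reads on genes against 18004977 to 44427184 in all others. Their share of reads not aligned was 5.34% to 6.82%, against 15.3% to 34.0% in all others. The summed level of 6 hepatocyte markers was between 171000 and 219000 CPM in livers, between 8280 and 26900 CPM in Aldafermin + MYC and FGF19 + MYC tumors, and between 3640 and 10000 CPM in sgTrp53 + MYC tumors, with none of the 6 at 0 in any group. Against livers, 6 of 6 hepatocyte markers fell in both kinds of tumor, where 34.5% of all tested genes fell in the pooled tumors and 33% in sgTrp53 + MYC tumors. In bulk samples, fewer cells of a type and less RNA per cell cannot be told apart, and the part of this loss in the results below was not tested. Trp53 itself, the target of the guide, was between 18.7 and 79.8 CPM in sgTrp53 + MYC tumors, below every Aldafermin + MYC tumor (90.7 to 176 CPM) and every FGF19 + MYC tumor (109 to 155 CPM), and the pooled tumors were higher by 1.57 on the log2 scale (SE 0.24, adjusted p = 0.000159). Livers had between 28.8 and 36.3 CPM of Trp53, and an indel need not change its RNA level. When libraries were scaled by their totals alone, the median log2 fold change of all genes against livers moved from 0.10 to 0.94 for pooled Aldafermin + MYC and FGF19 + MYC tumors, and from 0.07 to 0.95 for sgTrp53 + MYC tumors. Under this scaling 5 of the 6 hepatocyte markers fell in each of these comparisons, beside 18.3% and 16.9% of all genes.

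The 5 receptors, Fgf1 and Fgf21 were lower in tumors than in livers, while Klb and Frs2 changed least on the TMM scale. In pooled Aldafermin + MYC and FGF19 + MYC tumors (n = 10) 7 of the 9 tested genes fell relative to livers (n = 5) and none rose, where 34.5% of all tested genes fell and 39.2% rose. In sgTrp53 + MYC tumors (n = 5) 8 of 9 fell and none rose, where 33% of all tested genes fell and 36.9% rose. Tumor and liver values did not overlap for 6 genes in the first comparison and for 7 in the second, all of them lower in tumors, against 25.7% and 27.4% of all genes. Over the 9 genes the median log2 fold change was -1.63 in the first comparison, beside 0.10 for all genes, and -2.68 in the second, beside 0.07. Both comparisons share the same 5 livers. Fgf21 passed the low count filter mainly through the livers and therefore had to be lower in tumors. It is included in the counts of genes that fell and of genes without overlap in both comparisons. Fgf15 was below the filter and is described separately.

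**Figure D1:**
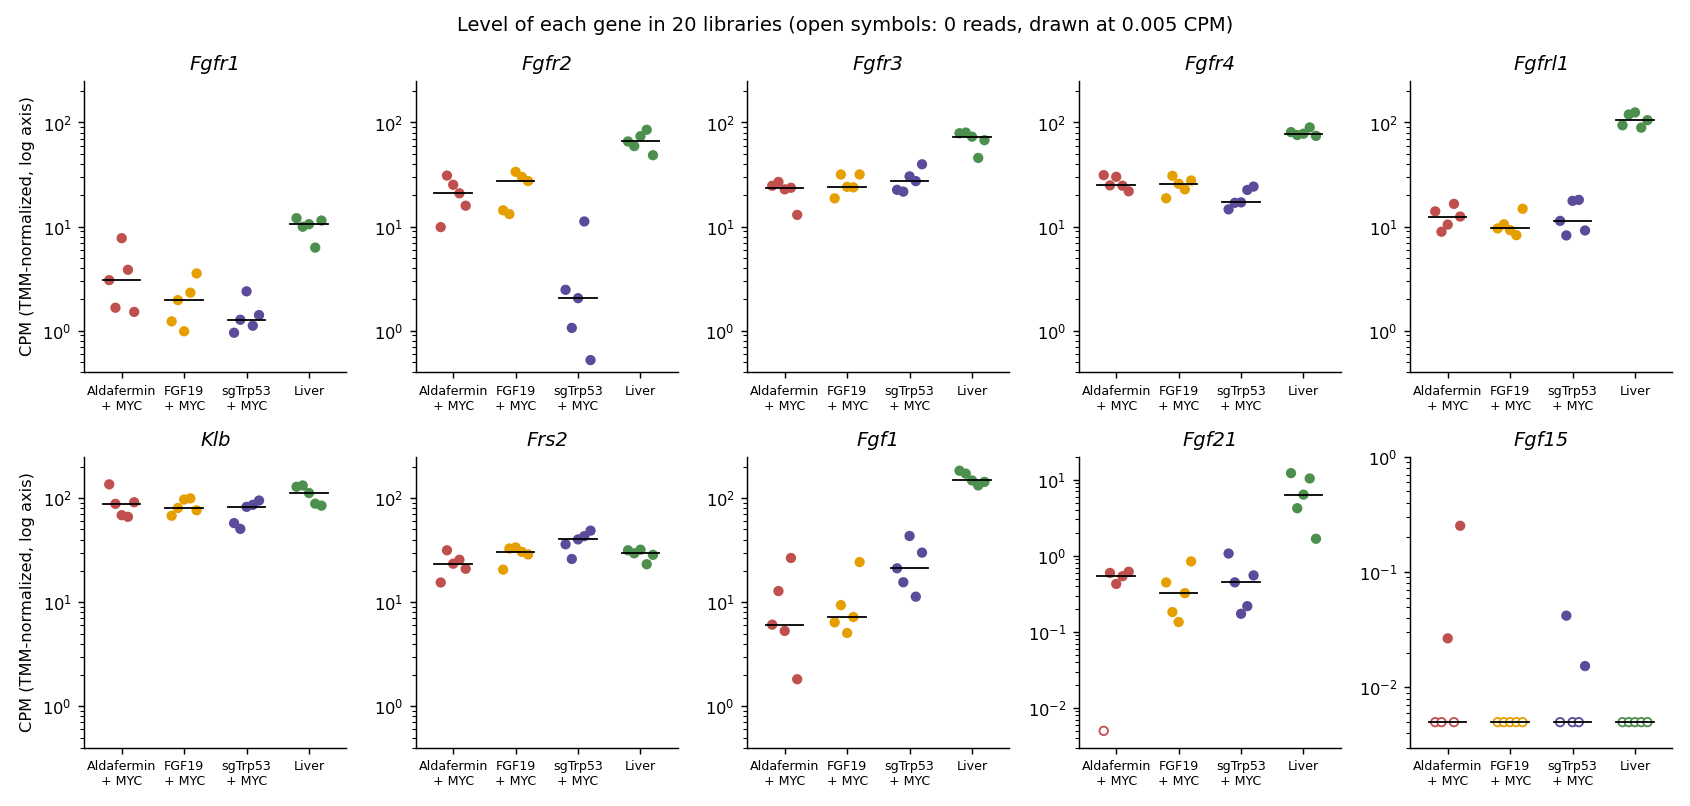
Level of each gene in every library, in CPM on a log axis, by group. Points are libraries in replicate order, black lines are medians, and open points at 0.005 CPM had 0 reads. Livers stand above all tumors for Fgfr2, Fgfr3, Fgfr4, Fgfrl1, Fgf1 and Fgf21, and overlap with them for Klb and Frs2.

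Fgfr4 (chr13:55300453-55316572 on GRCm39, 18 exons), the main hepatocyte receptor of FGF19, had the narrowest spread of the 5 receptors in each group. Its level was 80.8, 75.7, 78.0, 89.6 and 74.3 CPM in livers 1 to 5. It was 31.2, 24.8, 30.1, 24.7 and 21.8 CPM in Aldafermin + MYC tumors and 18.7, 30.7, 25.8, 22.8 and 27.7 CPM in FGF19 + MYC tumors. In sgTrp53 + MYC tumors it was 14.6, 16.9, 17.1, 22.5 and 24.2 CPM. Every tumor was below every liver, and the 3 tumor groups overlapped with each other. Fgfr4 fell 3.09-fold in pooled Aldafermin + MYC and FGF19 + MYC tumors (log2 fold change -1.63, SE 0.13, adjusted p = 9.42e-10, edgeR's quasi-likelihood test) and 4.18-fold in sgTrp53 + MYC tumors (-2.06, SE 0.16, adjusted p = 1.01e-09).

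Between tumors, Fgfr4 was 1.36-fold higher in pooled Aldafermin + MYC and FGF19 + MYC tumors than in sgTrp53 + MYC tumors (log2 fold change 0.44, SE 0.14, adjusted p = 0.0249). This was one of 3 calls among the 9 genes, 2 higher and 1 lower, where 11.6% of all tested genes were higher and 12.1% lower. No gene of the 9 was free of overlap between these tumors, beside 5.7% of all genes. The call was lost when fold changes were corrected for GC content and length (0.25, adjusted p = 0.11), under 3 further settings, and without sgTrp53 + MYC replicate 1, 2 or 3 (adjusted p between 0.0637 and 0.0672).

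Fgfr3 also fell against livers. It was between 45.6 and 79.9 CPM in livers (median 73.0), between 12.9 and 26.8 CPM in Aldafermin + MYC tumors, between 18.7 and 31.7 CPM in FGF19 + MYC tumors and between 21.7 and 39.6 CPM in sgTrp53 + MYC tumors. It fell 2.88-fold in pooled Aldafermin + MYC and FGF19 + MYC tumors (-1.52, SE 0.18, adjusted p = 2.35e-07) and 2.44-fold in sgTrp53 + MYC tumors (-1.29, SE 0.22, adjusted p = 2.85e-05), a call that was lost with scaling by library totals (-0.39, adjusted p = 0.154). Its level did not differ detectably between the tumor groups (-0.24, 95% interval -0.62 to 0.14, adjusted p = 0.37), although it was called with the GC and length correction (-0.44, adjusted p = 0.0302).

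Fgfr2 (chr7:129763471-129868272) had the largest difference between the tumors. Livers had 65.7, 59.3, 73.8, 85.02 and 48.5 CPM. Aldafermin + MYC tumors had 9.87, 30.9, 25.2, 20.9 and 15.9 CPM, and FGF19 + MYC tumors had 14.3, 13.2, 33.6, 29.9 and 27.3 CPM. The sgTrp53 + MYC tumors had 2.47, 1.06, 2.05, 11.2 and 0.521 CPM. Of these 5 tumors, 4 were below all others, and replicate 4 alone reached the range of the Aldafermin + MYC tumors. Fgfr2 fell 3.01-fold in pooled Aldafermin + MYC and FGF19 + MYC tumors against livers (-1.59, SE 0.46, adjusted p = 0.00404), a call that was lost with scaling by library totals (-0.73, adjusted p = 0.158). In sgTrp53 + MYC tumors it fell 19.2-fold (-4.26, SE 0.63, adjusted p = 6.05e-06). The difference between the tumors was 6.37-fold (2.67, SE 0.55, adjusted p = 0.00189), with overlap through that 1 library. Without sgTrp53 + MYC replicate 4 the log2 fold changes of the sgTrp53 + MYC tumors were -5.44 against livers and 3.85 in the comparison with pooled Aldafermin + MYC and FGF19 + MYC tumors.

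Fgfr1, found mainly outside hepatocytes in liver, had the lowest mean of the receptors per kilobase of exon in each group. In sgTrp53 + MYC replicates 2, 3 and 5, however, Fgfr2 was lower. Fgfr1 was 12.03, 9.96, 10.5, 6.27 and 11.4 CPM in livers, 3.06, 1.66, 7.73, 3.84 and 1.51 CPM in Aldafermin + MYC tumors, 1.23, 1.96, 0.986, 2.32 and 3.54 CPM in FGF19 + MYC tumors, and 0.954, 1.27, 2.38, 1.12 and 1.41 CPM in sgTrp53 + MYC tumors. Only Aldafermin + MYC replicate 3 reached the lowest liver. In that library the summed level of 7 stellate cell and fibroblast markers was 1570 CPM, against 190 to 574 CPM in the other Aldafermin + MYC tumors 116 to 590 CPM in FGF19 + MYC tumors, 149 to 283 CPM in sgTrp53 + MYC tumors and 319 to 461 CPM in livers. None of these markers was at 0 in any group, and the part of these cells in its Fgfr1 level was not tested. Fgfr1 fell 3.75-fold in pooled Aldafermin + MYC and FGF19 + MYC tumors (-1.91, SE 0.35, adjusted p = 5.95e-05) and 7.02-fold in sgTrp53 + MYC tumors (-2.81, SE 0.44, adjusted p = 1.36e-05). Between the tumors the log2 difference was 0.91 (95% interval 0.12 to 1.69, adjusted p = 0.0874), and it passed the threshold without sgTrp53 + MYC replicate 3 (1.17, adjusted p = 0.0483). The 3 genes with the profile most like that of Fgfr1 over the 20 libraries, by the root mean square difference of centered log2 CPM, were Abcc9 (0.41), Tnfrsf14 (0.44) and Snx33 (0.46), among 9388 candidate genes averaging 10 CPM or more.

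Fgfrl1 (chr5:108842057-108858366), a receptor that binds FGFs but lacks the kinase domain, fell furthest of the receptors in pooled Aldafermin + MYC and FGF19 + MYC tumors. It was 93.9, 119, 125, 89.1 and 105 CPM in livers, and between 8.22 and 18.0 CPM in the 15 tumors. The lowest liver was thus well above the highest tumor. The fall was 9.31-fold in pooled Aldafermin + MYC and FGF19 + MYC tumors (-3.22, SE 0.19, adjusted p = 1.56e-11) and 8.26-fold in sgTrp53 + MYC tumors (-3.05, SE 0.24, adjusted p = 1.41e-09). Between pooled Aldafermin + MYC and FGF19 + MYC tumors and sgTrp53 + MYC tumors the log2 difference was -0.17 (95% interval -0.58 to 0.23). Exons of Fgfr3, Fgfrl1 and Fgfr1 overlap over 412, 148 and 125 bases with exons of non-coding or unclassified transcripts on the other strand.

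**Figure D2:**
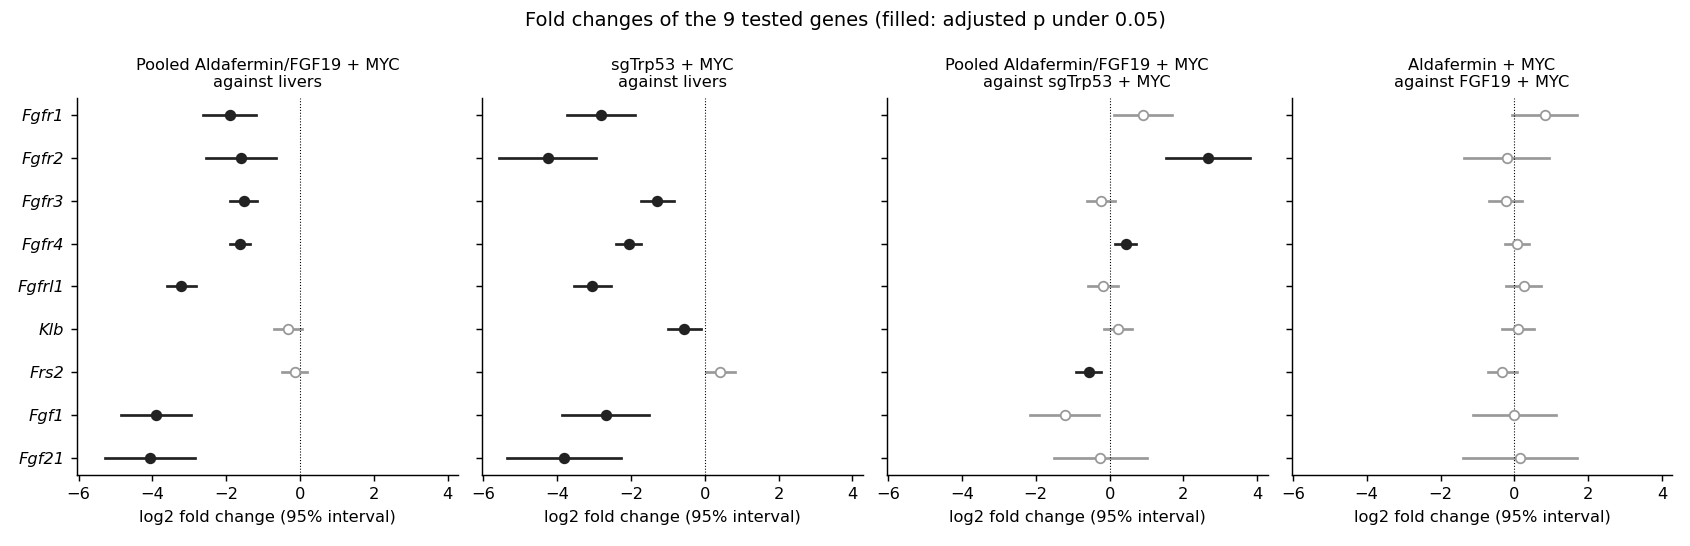
Log2 fold change with 95% interval of the 9 tested genes in the 4 comparisons, with filled points where adjusted p was under 0.05. Against livers the points of Klb and Frs2 lie nearest to 0 on the TMM scale and cross to higher for Klb in both comparisons, and for Frs2 in the pooled one, when libraries are scaled by totals. In the last panel every interval includes 0.

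Klb (chr5:65505657-65541350) was the most abundant of these genes in tumors per kilobase of exon. It was 129, 132, 112, 88.6 and 84.7 CPM in livers, and 136, 88.2, 68.6, 66.2 and 91.4 CPM in Aldafermin + MYC tumors. It was 67.8, 80.4, 97.0, 99.5 and 76.5 CPM in FGF19 + MYC tumors, and 57.6, 50.7, 82.5, 86.2 and 94.9 CPM in sgTrp53 + MYC tumors. All 4 groups overlapped. On the TMM scale Klb fell 1.47-fold in sgTrp53 + MYC tumors against livers (-0.56, SE 0.21, adjusted p = 0.025), but with scaling by library totals the direction turned (0.34, adjusted p = 0.182), and without a low count filter the call was lost (-0.27, adjusted p = 0.351). In pooled Aldafermin + MYC and FGF19 + MYC tumors the log2 fold change was -0.33 (SE 0.18, adjusted p = 0.108), and it was 0.52 with scaling by library totals (adjusted p = 0.025). Leaving out Liver replicate 1 or 2, sgTrp53 + MYC replicate 1 or 2, or Aldafermin + MYC replicate 5 ended the call in sgTrp53 + MYC tumors, and leaving out Aldafermin + MYC replicate 1 made the pooled fall pass the threshold (-0.42, adjusted p = 0.0257). Between pooled Aldafermin + MYC and FGF19 + MYC tumors and sgTrp53 + MYC tumors the log2 difference was 0.23 (95% interval -0.16 to 0.61, adjusted p = 0.398).

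Exons of Klb share 646 bases with exons of Rpl9, a ribosomal protein gene on the other strand that was higher in tumors than in livers (log2 fold change 1.59, adjusted p = 0.00879, in pooled Aldafermin + MYC and FGF19 + MYC tumors, and 1.53, adjusted p = 0.0205, in sgTrp53 + MYC tumors). The library kit marks strand, but whether counting used it is not given in the sources used here. If it did not, reads of the 2 genes in that stretch cannot be told apart. The profiles most like that of Klb were those of Cxxc5 (root mean square difference 0.20), Stard4 (0.22) and Lgr4 (0.22).

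A ratio of 2 genes within a library does not depend on the scaling. Klb had 1.59, 1.75, 1.44, 0.989 and 1.14 reads per Fgfr4 read in livers. It had 4.35, 3.55, 2.28, 2.68 and 4.19 in Aldafermin + MYC tumors, 3.63, 2.62, 3.77, 4.37 and 2.76 in FGF19 + MYC tumors, and 3.94, 3.00, 4.84, 3.84 and 3.92 in sgTrp53 + MYC tumors. No tumor overlapped with a liver. The ratio was 2.47-fold higher in pooled Aldafermin + MYC and FGF19 + MYC tumors than in livers (log2 difference 1.30, two-sided exact permutation test, p = 0.000666, adjusted over 8 tests p = 0.00533). In sgTrp53 + MYC tumors it was 2.86-fold higher (1.51, exact permutation p = 0.00794, adjusted p = 0.0317), and this p is the smallest that 5 against 5 allows. Between tumors the log2 difference was -0.21 (exact permutation p = 0.235, adjusted p = 0.47).

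**Figure D3:**
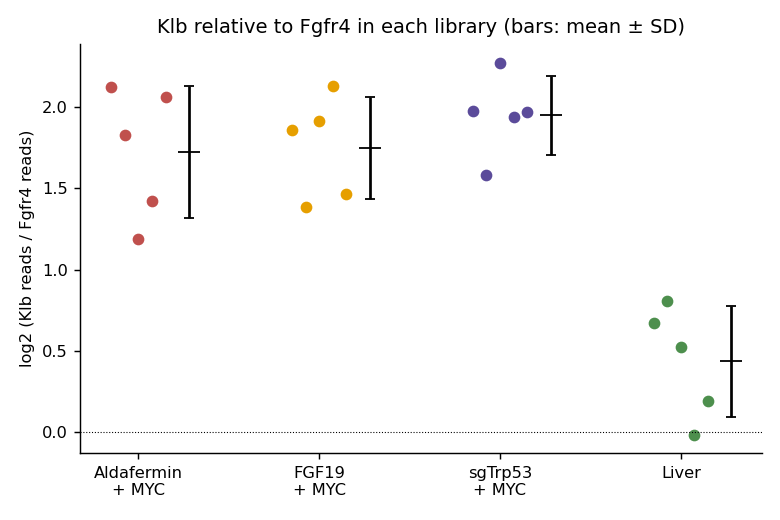
Log2 of Klb reads over Fgfr4 reads in each library by group, with the mean and SD beside the points. The means were 1.73 in Aldafermin + MYC, 1.75 in FGF19 + MYC and 1.95 in sgTrp53 + MYC tumors, and 0.43 in livers, and each tumor lies above each liver.

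The balance among the 4 signalling receptors was compared as shares of their reads per kilobase of exon. Fgfr4 held 44.7% ± 3.35 (SD, n = 5) in livers, 46.3% ± 6.42 in Aldafermin + MYC, 41.6% ± 4.10 in FGF19 + MYC and 43.3% ± 3.11 in sgTrp53 + MYC tumors. No difference in the Fgfr4 share passed the test (adjusted exact permutation p between 0.47 and 0.857 over the 4 comparisons). The other shares are given without a test. Fgfr2 held 21.8% ± 4.05 in livers, 20.7% ± 6.55 and 22.9% ± 7.48 in Aldafermin + MYC and FGF19 + MYC tumors, and 4.44% ± 4.91 in sgTrp53 + MYC tumors. Fgfr3 held 30.4% ± 5.97, 29.8% ± 4.10, 33.8% ± 3.74 and 50.5% ± 5.48 in the same order. The sgTrp53 + MYC tumors thus had a lower mean Fgfr2 share and a higher mean Fgfr3 share than the other groups. Fgfr1 held between 1.77% and 3.21% on average in every group.

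**Figure D4:**
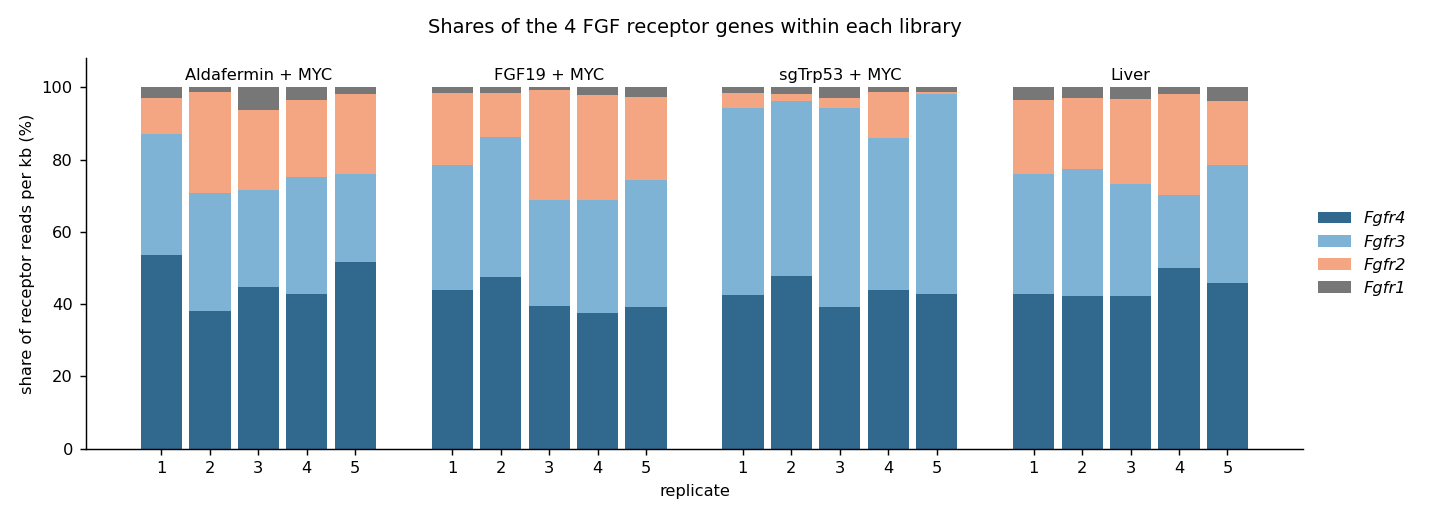
Share of each receptor gene in the summed reads per kilobase of Fgfr1, Fgfr2, Fgfr3 and Fgfr4, in percent, 1 stacked bar per library. The Fgfr4 part is 37.7% to 53.7% in every library, while the Fgfr2 part is 12.9% or less in the 5 sgTrp53 + MYC tumors, in Aldafermin + MYC replicate 1 and in FGF19 + MYC replicate 2.

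Per kilobase of exon, the order of the genes differed between livers and tumors. In livers it was Fgf1 (36.8 ± 4.99 CPM per kb, SD, n = 5), Klb (30.9 ± 6.24), Fgfr4 (24.0 ± 1.83), Fgfrl1 (17.1 ± 2.48), Fgfr3 (16.4 ± 3.31), Fgfr2 (11.8 ± 2.47), Fgf21 (7.24 ± 4.50), Frs2 (4.49 ± 0.55) and Fgfr1 (1.64 ± 0.37). Only Fgfr4 and Fgfrl1, and Frs2 and Fgfr1, were neighbours whose means differed by more than the sum of their SDs. In each tumor group Klb was first, at 25.4 ± 7.89, 23.8 ± 3.85 and 21.0 ± 5.42 CPM per kb in Aldafermin + MYC, FGF19 + MYC and sgTrp53 + MYC tumors, with the next gene at 7.98, 7.56 and 6.70 CPM per kb (Fgfr4, Fgfr4 and Fgfr3). The order depends on the length used. Per kilobase of coding sequence, mean Fgf1 was above Klb in sgTrp53 + MYC tumors (52.2 against 23.8 CPM per kb). In livers Fgfrl1 was then above Klb (67.1 against 34.9 CPM per kb).

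Among the ligands, Fgf1 was abundant in livers, at 184, 172, 148, 133 and 143 CPM. It was 6.09, 12.8, 5.30, 26.6 and 1.82 CPM in Aldafermin + MYC tumors, 6.41, 9.38, 5.06, 7.21 and 24.3 CPM in FGF19 + MYC tumors, and 21.2, 15.6, 43.3, 11.3 and 29.96 CPM in sgTrp53 + MYC tumors. All tumors were far below all livers. Fgf1 fell 14.9-fold in pooled Aldafermin + MYC and FGF19 + MYC tumors (-3.89, SE 0.46, adjusted p = 2.49e-07) and 6.42-fold in sgTrp53 + MYC tumors (-2.68, SE 0.56, adjusted p = 0.000308). Aldafermin + MYC replicate 4 and FGF19 + MYC replicate 5, the highest of their groups, also had the highest hepatocyte marker sums there, at 20900 CPM (others 8280 to 14950) and 26900 CPM (others 9050 to 13280), and the part of hepatocyte RNA in their Fgf1 level was not tested. Without these 2 libraries, a setting chosen after seeing the data, the fall against livers was -4.52 (adjusted p = 4.64e-09). The difference between pooled Aldafermin + MYC and FGF19 + MYC tumors and sgTrp53 + MYC tumors did not pass the threshold (-1.21, SE 0.45, adjusted p = 0.056) but did so without these 2 libraries (-1.84, adjusted p = 0.00141) and under 5 of 10 other settings (adjusted p between 0.0256 and 0.0492), as well as without Aldafermin + MYC replicate 4 or 5, FGF19 + MYC replicate 5 or sgTrp53 + MYC replicate 4.

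Fgf21 (chr7:45263301-45264914) was the member nearest to the detection limit among those tested. Livers had 12.2, 4.21, 6.35, 10.4 and 1.67 CPM, a 7.29-fold range. Aldafermin + MYC tumors had 0, 0.594, 0.426, 0.538 and 0.616 CPM, FGF19 + MYC tumors had 0.446, 0.182, 0.134, 0.322 and 0.842 CPM, and sgTrp53 + MYC tumors had 1.07, 0.447, 0.173, 0.218 and 0.552 CPM. All livers were above all tumors, and only 1 tumor, sgTrp53 + MYC replicate 1, reached 1 CPM. Fgf21 thus passed the low count filter through the livers, so a lower level in tumors was set by the filter. The p-values against livers given next are therefore no evidence of a fall. The fitted log2 fold change was -4.07 (SE 0.58, adjusted p = 3.67e-06) in pooled Aldafermin + MYC and FGF19 + MYC tumors and -3.82 (SE 0.74, adjusted p = 0.000139) in sgTrp53 + MYC tumors, and -0.25 (95% interval -1.51 to 1.00, adjusted p = 0.797) between these tumors. Of 4 regulators of Fgf21 listed, Ppara, the fasting-activated nuclear receptor, and Mlxipl (ChREBP), a carbohydrate-responsive factor, fell in pooled Aldafermin + MYC and FGF19 + MYC tumors against livers (-3.26, adjusted p = 2.18e-09, and -2.04, adjusted p = 1.42e-08). Atf4, a factor of the integrated stress response, rose (0.84, adjusted p = 8.5e-05), and Ddit3 was not called (-0.43, adjusted p = 0.152). Ppara, Mlxipl and Ddit3 fell in sgTrp53 + MYC tumors, and Atf4 was not called (0.38, adjusted p = 0.063), whereas with scaling by library totals Ddit3 was not called (-0.42, adjusted p = 0.237) and Atf4 was higher (1.25, adjusted p = 1.27e-06). The profiles most like that of Fgf21 were those of Msrb1 (0.83), Slc25a47 (0.86) and Pex11a (0.88), at a distance several times that seen for Fgfr4, whose nearest were Slc27a4, Whamm and Tle5 (0.18, 0.18 and 0.19).

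Promoter sequences are shown for 4 of these genes, because Fgf21 and Fgfrl1 were among those that fell most and Fgfr4 and Klb are the receptor pair whose ratio moved. Each is the 250 bases before the start site, 5′ to 3′ on the gene's strand, from RefSeq on GRCm38.p6, which held 7 of the 10 genes. They lie at chr7:45615491-45615740 (minus strand) for Fgf21, chr5:108693979-108694228 (plus) for Fgfrl1, chr13:55152568-55152817 (plus) for Fgfr4 and chr5:65348161-65348410 (plus) for Klb. Capitals mark matches, on either strand, to an E-box (CACGTG) or to the ATF4 response element (TGATGCAA).
Fgf21: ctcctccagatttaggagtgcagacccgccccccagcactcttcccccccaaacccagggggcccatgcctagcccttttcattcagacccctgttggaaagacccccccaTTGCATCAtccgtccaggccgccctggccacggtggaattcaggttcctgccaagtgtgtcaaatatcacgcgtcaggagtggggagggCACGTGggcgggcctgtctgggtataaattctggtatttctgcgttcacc
Fgfrl1: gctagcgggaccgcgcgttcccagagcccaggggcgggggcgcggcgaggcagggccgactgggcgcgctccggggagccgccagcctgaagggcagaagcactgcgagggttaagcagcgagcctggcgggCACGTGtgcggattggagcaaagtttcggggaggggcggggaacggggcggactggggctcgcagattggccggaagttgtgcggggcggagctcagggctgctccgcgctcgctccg
Fgfr4: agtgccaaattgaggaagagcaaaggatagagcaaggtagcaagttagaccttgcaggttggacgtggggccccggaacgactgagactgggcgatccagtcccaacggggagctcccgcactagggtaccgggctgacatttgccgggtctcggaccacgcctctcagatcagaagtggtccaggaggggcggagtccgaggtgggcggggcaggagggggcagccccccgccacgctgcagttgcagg
Klb: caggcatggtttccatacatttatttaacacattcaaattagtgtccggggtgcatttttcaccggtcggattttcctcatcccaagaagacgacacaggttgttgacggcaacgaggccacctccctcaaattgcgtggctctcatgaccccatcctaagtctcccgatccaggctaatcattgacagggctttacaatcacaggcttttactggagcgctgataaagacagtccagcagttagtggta
The Fgf21 promoter held both, the E-box at -50 and the ATF4 response element, read on the other strand, at -139 from the start site. Fgfrl1 held an E-box at -118. Neither motif was in these windows of Fgfr4, Klb, Fgfr2, Fgfr3 or Frs2. Of 32851 mouse promoters of this length, 6.02% held the E-box and 0.791% the ATF4 response element. A PPAR response element (0.0335% of promoters) and an HNF1 site (0.00913%) were also searched and were in none of these windows. A match is a description of the sequence only.

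Fgf15, normally made by ileal enterocytes, was at 0 reads in all 5 livers and all 5 FGF19 + MYC tumors. It had 1 read in Aldafermin + MYC replicate 3, 9 in Aldafermin + MYC replicate 5, 3 in sgTrp53 + MYC replicate 2 and 1 in sgTrp53 + MYC replicate 5. Only 1 library was thus above the floor of 3 reads. The limit that a count of 0 allows was between 0.0879 and 0.167 CPM in FGF19 + MYC tumors and between 0.11 and 0.215 CPM in livers, covering counting error only. No difference was called (exact permutation p between 0.444 and 0.923 in the 3 comparisons with a library above 3 reads). In the comparisons of Aldafermin + MYC with FGF19 + MYC tumors and of pooled tumors with livers, every read lay in Aldafermin + MYC tumors. With these reads no smaller p was possible for a higher level there, so these tests could not show a difference. Exons of Fgf15 overlap with those of 2 long non-coding RNAs on the other strand over 505 bases. The library with 9 reads also had 302 reads of Fabp6, the ileal bile acid binding protein and like Fgf15 a target of the bile acid receptor, against 0 to 5 in the other Aldafermin + MYC tumors. Fabp6 was at 0 in all livers and had between 156 and 8515 reads in sgTrp53 + MYC tumors, most in replicate 2, which had 3 Fgf15 reads, while replicate 1, with 5598, had no Fgf15 read. The summed level of 5 ileal enterocyte markers was 34.6 to 156 CPM in Aldafermin + MYC tumors, highest in replicate 5, 33.8 to 157 CPM in FGF19 + MYC tumors, 21.6 to 159 CPM in sgTrp53 + MYC tumors and 72.9 to 104 CPM in livers. The ileal factor Cdx2 was at 0 in 19 libraries and had 1217 reads (17.0 CPM) in sgTrp53 + MYC replicate 2, the library with the most Fabp6 reads, whose summed level of 5 biliary markers (777 CPM) was also the highest of its group. The part of such cells in the Fgf15 reads was not tested. Of the 19 other FGF genes, Fgf2 to Fgf23, none passed the low count filter. The highest of them in livers were Fgf11 (1.14 ± 0.32 CPM, SD, n = 5) and Fgf2 (1.09 ± 0.40 CPM).

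Frs2, the adaptor that couples the receptors to RAS/MAPK, had levels in tumors that overlapped with those in livers. It was 31.6, 29.5, 32.0, 23.2 and 28.5 CPM in livers and 36.0, 26.04, 40.2, 43.1 and 48.7 CPM in sgTrp53 + MYC tumors. It was between 15.5 and 31.6 CPM in Aldafermin + MYC tumors (median 23.4) and between 20.6 and 33.7 CPM in FGF19 + MYC tumors (median 30.5). All groups overlapped. Frs2 was 1.48-fold lower in pooled Aldafermin + MYC and FGF19 + MYC tumors than in sgTrp53 + MYC tumors (-0.57, SE 0.16, adjusted p = 0.0146), a call that was lost without sgTrp53 + MYC replicate 5 (-0.47, adjusted p = 0.0578). Against livers the log2 fold change was -0.15 (SE 0.16, adjusted p = 0.424) in pooled Aldafermin + MYC and FGF19 + MYC tumors and turned to 0.71 with scaling by library totals (adjusted p = 0.00276). In sgTrp53 + MYC tumors it was 0.42 (SE 0.19, adjusted p = 0.052), and it passed the threshold under 5 of 11 other settings and without Aldafermin + MYC replicate 1, 2 or 5, FGF19 + MYC replicate 1 or sgTrp53 + MYC replicate 2.

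**Figure D5:**
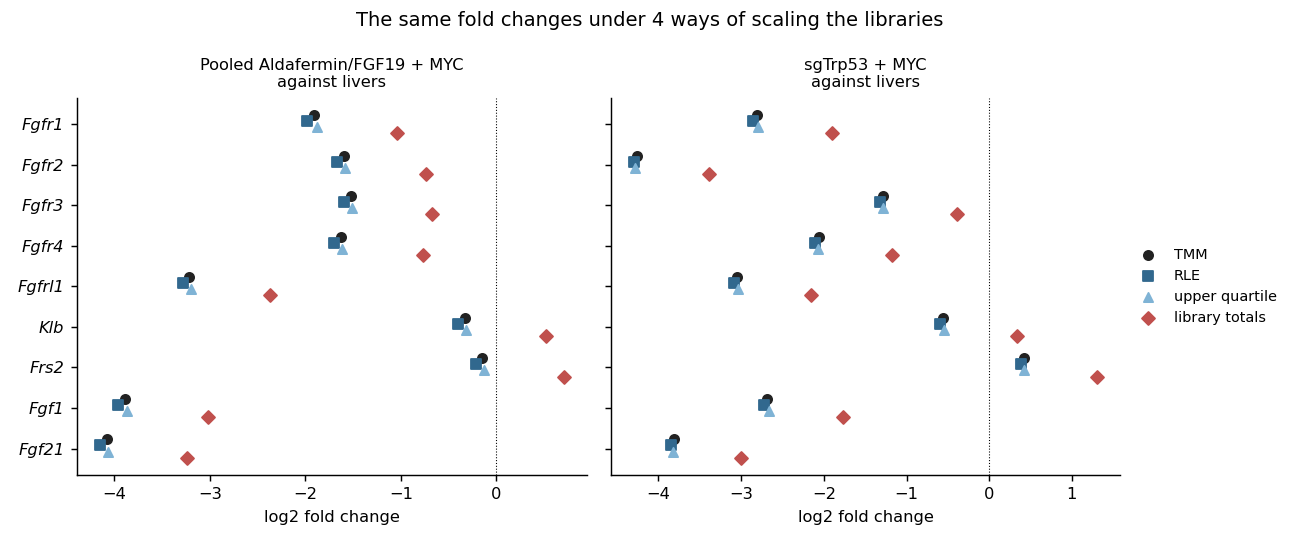
Log2 fold change against livers of the 9 tested genes under 4 ways of scaling the libraries, for pooled Aldafermin + MYC and FGF19 + MYC tumors (left) and sgTrp53 + MYC tumors (right). TMM, RLE and upper quartile scaling lie together, while scaling by library totals moves every gene to the right, takes Klb from lower to higher in both panels and takes Frs2 from lower to higher in the left one.

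Aldafermin + MYC and FGF19 + MYC tumors, which differ in the engineered N-terminus of the hormone, were compared for every gene. None of the 9 tested genes was called, where 0% of all tested genes were. All 9 overlapped between the groups, beside 1.46% of all genes that did not, and none had an unadjusted p under 0.05. The same was true with DESeq2 and with edgeR's likelihood ratio test, which called none of the 9. The interval of the difference was narrowest for Fgfr4 (log2 difference 0.08, 95% interval -0.25 to 0.40), followed by Frs2 (-0.32, -0.72 to 0.07), Klb (0.10, -0.34 to 0.54), Fgfr3 (-0.23, -0.68 to 0.22) and Fgfrl1 (0.25, -0.23 to 0.72). It was wider for Fgfr1 (0.82, -0.07 to 1.70), Fgfr2 (-0.21, -1.35 to 0.94), Fgf1 (0.00, -1.13 to 1.12) and Fgf21 (0.16, -1.38 to 1.70). The log2 difference of the Klb to Fgfr4 ratio was -0.02 (exact permutation p = 0.857). For Fgfr4 and Klb, differences beyond 1.32-fold and 1.45-fold in favour of Aldafermin were outside the interval, while for Fgfr1 the interval reached 3.25-fold. Missing the threshold does not show that the tumors are alike.

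Around these genes, the lists of the pathway moved unevenly. Of 3 genes that read out the activity of the receptor, the bile acid synthesis enzymes Cyp7a1 and Cyp8b1 fell in pooled Aldafermin + MYC and FGF19 + MYC tumors against livers (-6.83, SE 1.18, adjusted p = 3.37e-05, and -5.11, SE 0.80, adjusted p = 1.1e-05). Both were also lower than in sgTrp53 + MYC tumors (-4.39, adjusted p = 0.00715, and -2.16, adjusted p = 0.0437). Cyp7a1 reached 1 CPM in all livers and all sgTrp53 + MYC tumors. Among the pooled tumors, only Aldafermin + MYC replicate 4 and FGF19 + MYC replicates 2 and 5 did so. Cyp7a1 thus passed the low count filter through the groups where it was higher. Its p-values for the pooled tumors are therefore no evidence of a fall. Cyp8b1 also fell in sgTrp53 + MYC tumors against livers (-2.94, adjusted p = 0.0107), a call that was lost with scaling by library totals (-2.08, adjusted p = 0.0503), and Cyp7a1 was not called (-2.45, adjusted p = 0.0981). Every sgTrp53 + MYC tumor was nonetheless below every liver for both enzymes, as were 27.4% of all genes. Cyp7a1 was 4.53 to 92.5 CPM there against 117 to 533 CPM in livers, and Cyp8b1 was 5.3 to 89.4 CPM against 111 to 519 CPM. Aldafermin + MYC replicate 4, the tumor with the highest hepatocyte marker sum of its group, had 28.8 CPM of Cyp7a1 and 44.1 CPM of Cyp8b1, whereas the other 9 pooled tumors had at most 3.30 and 10.9 CPM. Without it the log2 fold changes against livers were -10.18 and -6.21, those against sgTrp53 + MYC tumors were -7.74 and -3.26, and Cyp7a1 was called in sgTrp53 + MYC tumors against livers (adjusted p = 0.00483). The difference of Cyp8b1 between tumors was called in 9 of 20 fits that left out 1 library (adjusted p between 0.000871 and 0.144). Nr0b2 (SHP), a co-repressor of these enzymes, was not called in the comparisons of the pooled tumors with livers and with sgTrp53 + MYC tumors (0.36, adjusted p = 0.67, and 2.00, adjusted p = 0.0817), although without sgTrp53 + MYC replicate 4 it was higher in the pooled tumors than in sgTrp53 + MYC tumors (4.03, adjusted p = 0.000887). In sgTrp53 + MYC tumors against livers it was not called (-1.63, adjusted p = 0.103), but it was lower without that replicate (-3.67, adjusted p = 0.000313).

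Of 19 tested heparan sulfate carriers and enzymes, which present FGFs to their receptors, 5 rose and 11 fell in pooled Aldafermin + MYC and FGF19 + MYC tumors against livers (median -0.69), where 39.2% of all tested genes rose and 34.5% fell. In sgTrp53 + MYC tumors 4 rose and 11 fell, beside 36.9% and 33% of all genes. Among the 19, Hs6st2 had 0 reads in livers and passed the low count filter through tumors alone, so a higher level there was set by the filter. With scaling by library totals the counts of the list became 7 and 6 in the pooled tumors (median 0.16), beside 61.1% and 18.3% of all genes. They became 6 and 7 in sgTrp53 + MYC tumors, beside 59.5% and 16.9% of all genes. Gpc3, an oncofetal glypican, was between 0.682 and 2.34 CPM in livers and between 261 and 416 CPM in the pooled tumors (7.73, SE 0.48, adjusted p = 2.82e-11). In sgTrp53 + MYC tumors it was between 75.0 and 396 CPM (6.72). The lowest liver was below 1 CPM, so Gpc3 passed the low count filter through tumors and its p-value is no evidence of a rise. The syndecans Sdc2 (-3.12) and Sdc1 (-1.75) fell in the pooled tumors against livers. Relative to sgTrp53 + MYC tumors, 11 of the 19 were higher in pooled Aldafermin + MYC and FGF19 + MYC tumors and none lower (median 0.47 beside -0.02 for all genes), where 11.6% of all tested genes were higher and 12.1% lower, among them Ext1, which elongates the chains (1.05, SE 0.12, adjusted p = 8.92e-06), Sdc1 (0.87) and Sdc4 (0.76). With scaling by library totals, 4 were higher and none lower, beside 10.2% and 13.5% of all genes. In the same comparison 4 of 5 macrophage markers were higher and 4 of 5 biliary markers lower. The summed macrophage level was between 150 and 459 CPM in the pooled tumors and between 82.8 and 164 CPM in sgTrp53 + MYC tumors. The summed biliary level was between 1.81 and 87.4 CPM in the pooled tumors. It was 777 CPM in sgTrp53 + MYC replicate 2 alone. The other sgTrp53 + MYC tumors had between 3.44 and 41.1 CPM, within the range of the pooled tumors. No macrophage or biliary marker was at 0 in any group. Their part in the result was not tested.

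Of 19 adaptors and effectors downstream of the receptors, 2 rose and 7 fell in pooled Aldafermin + MYC and FGF19 + MYC tumors against livers (median -0.23 beside 0.10 for all genes), so the share that fell was near the 34.5% of all genes and the share that rose was below their 39.2%. First by adjusted p were the phospholipase Plcg1 (-1.66, adjusted p = 1.23e-06), the docking protein Gab1 (-1.98, adjusted p = 1.28e-05) and Stat3 (-0.85, adjusted p = 5.2e-05), of which Stat3 was no longer called with scaling by library totals (0.00, adjusted p = 0.999). The counts were the same in sgTrp53 + MYC tumors, 2 and 7, beside 36.9% and 33% of all genes. With scaling by library totals, 12 rose and 2 fell in the pooled tumors, beside 61.1% and 18.3% of all genes. In sgTrp53 + MYC tumors 10 rose and 1 fell under this scaling, beside 59.5% and 16.9% of all genes. Between tumors 1 of the 19 was called, beside 11.6% of all genes higher and 12.1% lower, the MAPK kinase Map2k2 (0.50, adjusted p = 0.00545), which was higher in pooled Aldafermin + MYC and FGF19 + MYC tumors. Of 5 tested co-receptors and carriers, 2 had a higher level in pooled tumors against livers, Fgfbp3, an FGF carrier (3.13, adjusted p = 1.29e-06), and Flrt3 (2.12, adjusted p = 0.0294). Livers had at most 0.682 CPM of Fgfbp3 and 0.409 CPM of Flrt3, so both passed the low count filter through tumors alone and a higher level there was set by the filter. The call of Flrt3 was lost without Liver replicate 1, 2, 3 or 5 (adjusted p between 0.0528 and 0.0746). Fibp, an intracellular FGF1 binding protein, was lower (-0.48, adjusted p = 0.0225), but higher with scaling by library totals (0.36, adjusted p = 0.045), and was not called without Aldafermin + MYC replicate 5 (adjusted p = 0.0534) or Liver replicate 4 (adjusted p = 0.0618). The klotho relatives Kl and Lctl were below the low count filter.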

How the data were processed

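The authors made stranded mRNA libraries, aligned reads with HISAT2 to the mouse genome (mm39) and counted them per gene with htseq-count. The deposited values are raw counts in 2 tables, without normalization, and all sample columns were used. The strand setting of counting is not given in the sources used here. The 5 summary lines, between 33.7% and 56.2% of a library's total, were removed. Replicates within a group differed beyond sampling noise (chi-square over degrees of freedom at least 15.0).

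Tests used edgeR 4.0.16 in R 4.3.3 (TMM, 1 quasi-likelihood model for the 4 groups, Benjamini-Hochberg adjustment over 14333 genes, threshold 0.05) and limma 3.58.1, and the edgeR step was checked on simulated counts with known changes before use. Ratios and Fgf15 were tested by two-sided exact permutation. Exon lengths are those of GENCODE M39 canonical transcripts on GRCm39. The members and lists were chosen with earlier results of these data known. Named genes were the 10 members, the 3 genes of each list with the smallest adjusted p in the pooled comparisons, 3 readouts of the receptor, and the 3 nearest profiles of 4 members. Rpl9, Trp53, Fabp6 and Cdx2 fall outside this rule, and Fabp6 was chosen after its values were seen.

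Alternatives were DESeq2 1.42.0, edgeR's likelihood ratio test, other scalings and filters, only the compared groups, the replicate number as a block, a GC and length correction, coding length or plain read shares for the receptor shares, no added reads in the ratio (0.5 otherwise), and each library left out. Leaving out 2 libraries with high hepatocyte marker sums, and applying the scalings, the block and the left out libraries to genes of the lists, were chosen after seeing the data.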

Additional observations from a re-analysis of the deposited data

Results flagged for a closer look

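Fgfr2 was 11.2 CPM in sgTrp53 + MYC replicate 4 and between 0.521 and 2.47 CPM in the other 4, a gap that made this library stand apart from its group. Fgf1 was 24.3 CPM in FGF19 + MYC replicate 5 and between 5.06 and 9.38 CPM in the others, in the library with the highest hepatocyte marker sum of its group. Fgf15 was 0.252 CPM in Aldafermin + MYC replicate 5 (9 reads) and at most 0.0266 CPM in the others. Chance alone is expected to set apart about 1 in 20 groups, here 2.4 of the 48 examined, and 3 were.

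For 3 genes the effect against livers differed between pooled Aldafermin + MYC and FGF19 + MYC tumors and sgTrp53 + MYC tumors by edgeR's test of the difference, which is the comparison of the tumors itself, since both effects share the livers. The log2 difference was 2.67 for Fgfr2, 0.44 for Fgfr4 and -0.57 for Frs2. Fgfr2 was higher in 10 of 10 pooled tumors than in 4 of the 5 sgTrp53 + MYC tumors. The tumors also differ in the count table, which cannot be told apart from the group.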

How the results depend on the processing

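The number of genes called ranged from 6 to 8 in pooled Aldafermin + MYC and FGF19 + MYC tumors against livers (reported 7), from 7 to 9 in sgTrp53 + MYC tumors against livers (reported 8) and from 2 to 4 between these tumors (reported 3), over all alternatives and with each library left out, and was 0 in every case between Aldafermin + MYC and FGF19 + MYC tumors. Of 390 single gene values under an alternative, 364 kept their side of the threshold, 15 passed it newly and 8 no longer did. The other 3 reversed in direction with a call in either fit. A change of sign between values that were not called was counted as kept. The reversed values came with scaling by library totals, 0.52 for Klb and 0.71 for Frs2 in pooled Aldafermin + MYC and FGF19 + MYC tumors against livers, and 0.34 for Klb in sgTrp53 + MYC tumors against livers. With each library left out, 700 of 720 values kept their call, 9 lost it and 11 gained it. The log2 Klb to Fgfr4 ratio of sgTrp53 + MYC tumors over livers ranged from 1.40 to 1.61 with 1 library left out, always at an adjusted exact permutation p of 0.0635, because 4 against 5 libraries allow no smaller p before adjustment.

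Replicate numbers only name the samples. Over 30 pairs of libraries with the same number, deviations from the group means correlated between -0.33 and 0.33 (median -0.02), and 0 of 20 libraries correlated best with their own number. With the replicate block, 7, 8, 3 and 0 genes were called, as without it. Of the other genes named between pooled Aldafermin + MYC and FGF19 + MYC tumors and sgTrp53 + MYC tumors, the block lost Cyp8b1 (-2.80, adjusted p = 0.0577) and gained Nr0b2 (2.69, adjusted p = 0.0368). Low counts limit Fgf15 and, in tumors, Fgf21.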
